A study of Homo sapiens with 16 samples.

Results

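The Be(2)-C libraries that received DAC together with EPZ-6438 (EPZ below) were set against the Be(2)-C libraries that received EPZ alone, to ask which RNAs changed when DAC was added to cells under EPZ. These libraries were picked by their labelled cell line and treatment, and they are 4 of the 16 libraries of the series, 2 on each side. The DAC+EPZ cells had EPZ at 1 µM over 96 h and DAC at 1 µM over 72 h, and the EPZ cells had the same EPZ treatment without DAC. Both groups thus share the EPZ treatment. For comparison, values are also given for Be(2)-C cells with DAC alone (1 µM, 72 h) and with the solvent DMSO, and for DAC+EPZ and EPZ cells of the second line, IMR5-75, at the same doses and times. Both lines are established human neuroblastoma lines, neuroblastoma being a childhood tumour of the sympathetic nervous system.

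The labels do not spell out DAC, a usual short name for decitabine. Decitabine is a cytidine analogue that is built into DNA during replication and there traps DNA methyltransferases, so that CG methylation is lost as cells divide. Genes held silent by promoter methylation, above all germline and cancer-testis genes, are the class best known to be expressed after such treatment. EPZ-6438 (tazemetostat) inhibits EZH2, the enzyme of Polycomb repressive complex 2 that methylates histone H3 at lysine 27 and keeps many developmental genes silent. Another programme that matters below is the integrated stress response, in which the transcription factor ATF4 switches on genes for amino acid uptake, amino acid synthesis and redox defence. Neither DNA methylation nor histone methylation was measured in these files.

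The 4 libraries held 9539557 to 11598843 counts and 18315 to 18806 genes with at least 1 count. Levels are CPM, counts scaled to a common library size with TMM factors, and 3 counts corresponded to 0.267 to 0.315 CPM. Changes are log2 fold changes ± SE from edgeR's quasi-likelihood model of all 16 libraries, DAC+EPZ over EPZ unless stated, and "called" means an adjusted p (Benjamini-Hochberg) under 0.05. Whether replicates were separate cultures is not stated in the labels. The p-values therefore measure only how far these libraries scatter, and that scatter may be technical. Counting intervals and lower bounds take in counting error alone. Where a group had 0 counts, the bound was set against 3 counts over that group, and it fell to 0.495 of its value without EPZ 1 and to 0.505 without EPZ 2. The defining markers of noradrenergic neuroblasts summed to 2548 and 2729 CPM in the DAC+EPZ libraries and 2933 and 2440 CPM in the EPZ libraries, with 0 of the 10 at 0 in all 4. Haematopoietic markers summed to 4.63 and 4.72 CPM in DAC+EPZ and 4.36 and 3.24 CPM in EPZ. Schwann and glial markers summed to 13.6 and 12.8 CPM in DAC+EPZ and 10.1 and 9.90 CPM in EPZ, and endothelial markers to 2.32 and 2.41 CPM in DAC+EPZ and 1.27 and 0.648 CPM in EPZ. Epithelial and fibroblast markers are given beside the groups they belong to. In bulk RNA, a change in the number of expressing cells and a change in RNA per cell cannot be told apart.

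Of 15967 tested genes, 672 (4.21%) were called when DAC was added to EPZ, 454 of them higher (2.84%) and 218 lower (1.37%). The higher genes had a median change of 1.31 and the lower genes one of -0.79, while the median of all tested genes was 0.007. Of the higher genes, 291 changed by more than 1 on the log2 scale and 100 by more than 3, and 43 had 0 counts in both EPZ libraries. Of the lower genes, 65 fell by more than 1 and 25 by more than 2. The DAC+EPZ and EPZ libraries lay apart in all 672 called genes and in 43.0% of all tested genes. Separation of the 2 groups in a called gene is thus no further support for its call. Leaving out 1 library moved the counts: 333 genes were called without DAC+EPZ 1 (75 of them lower), 278 without DAC+EPZ 2 (64 lower), 547 without EPZ 1 (175 lower) and 357 without EPZ 2 (137 lower). Of the called genes, 184 kept the call without each of the 4 libraries in turn, 152 higher and 32 lower, and "kept its call" below means this.

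Germline and cancer-testis genes, normally expressed in germ cells and silent in most other tissues, made up 7 of the 12 named genes with the highest fitted changes. Of 32 tested cancer-testis genes 19 were called higher and 0 lower, with a median change of 5.07, or 2.92 with genes without EPZ counts placed at their bound. Of 44 tested germline and meiosis genes 15 were called higher and 1 lower, with a median of 0.81. Over all tested genes the share called higher was 2.84% and the median 0.007. The lists named 69 cancer-testis genes, 68 of them in the count data, and 74 germline genes, and the untested ones failed the low-count filter. Genes with 0 counts in EPZ passed that filter only through other libraries and could not be called lower. The shares and medians of the tested members therefore overstate those of the full lists. Of these genes, 14 cancer-testis and 8 germline genes kept their calls. Without DAC+EPZ 2 the germline count was 9.

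DAZL encodes an RNA-binding protein of germ cells. It had 9.53 and 7.87 CPM in the DAC+EPZ libraries and 0 and 0.0925 CPM in the EPZ libraries. That is 182 counts against 1, a ratio of 191 (exact binomial 95% interval 33.9 to 7595, adjusted p = 5.45e-08). MAEL, needed to silence transposons through piRNAs, had 5.88 and 3.57 CPM in DAC+EPZ and 0 counts in EPZ, so it was at least 35.0-fold higher (adjusted p = 4.10e-06). TDRD12, of the same piRNA pathway, had 92 counts in DAC+EPZ against 1 in EPZ, a ratio of 96.7 (interval 16.9 to 3859). In each of these genes both DAC+EPZ libraries lay far above both EPZ libraries, and each kept its call. DDX4, the germ cell helicase VASA, stayed far lower, with 0.979 and 0.944 CPM in DAC+EPZ against 0 and 0.0925 CPM in EPZ. It had 20 counts against 1 (ratio 21.0, interval 3.36 to 871, adjusted p = 0.0140), and its adjusted p was 0.0749 without DAC+EPZ 1, 0.0631 without DAC+EPZ 2 and 0.102 without EPZ 1.

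Among germline genes with counts in both groups, PIWIL2, which binds piRNAs, had 1.96 and 2.73 CPM in DAC+EPZ and 0.0908 and 0.370 CPM in EPZ (3.28 ± 0.48). Its relative PIWIL4 had 3.03 and 2.94 CPM in DAC+EPZ and 0.636 and 0.555 CPM in EPZ (2.30 ± 0.38). TDRD9, a helicase of the piRNA pathway, had 3.29 and 5.24 CPM against 0.726 and 0.925 CPM (2.34 ± 0.36), and all 3 kept their calls. The germline gene called lower was LIN28B, which blocks maturation of the let-7 miRNAs and is expressed in neuroblastoma. Its level was 96.4 and 93.3 CPM in DAC+EPZ, against 145 and 190.1 CPM in EPZ (-0.82 ± 0.15, adjusted p = 0.00198, and 0.0553 without EPZ 2).

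Of the cancer-testis genes, the MAGE family members, surface-presented tumour antigens, were the most numerous. MAGEA12 had 5.52 and 4.93 CPM in DAC+EPZ and 0 counts in EPZ, at least 38.2-fold higher (adjusted p = 4.43e-07). MAGEA3 and MAGEA6 were each at least 28.0-fold higher and PAGE2 at least 28.4-fold higher, all from 0 counts in EPZ. PAGE5 had 134 counts against 1 (ratio 141, interval 24.8 to 5602) and MAGEA11 had 89 against 1 (ratio 93.5, interval 16.4 to 3735). LUZP4, an mRNA export factor of the testis, was at least 21.4-fold higher and CTAG2, a gene of the NY-ESO family, at least 14.7-fold higher, again with 0 counts in EPZ. Further genes from 0 counts were ANKRD26P1, a pseudogene (at least 17.9-fold), DCAF4L2 (at least 15.8-fold), NAA11, a testis-expressed copy of an N-terminal acetyltransferase (at least 15.1-fold), and the uncharacterised LOC100129520 (at least 11.9-fold). These genes kept their calls, but near-identical copies of MAGEA and PAGE genes can share reads, so the split between copies is uncertain. PRAME was already well expressed in EPZ cells: it had 33.1 and 39.5 CPM in DAC+EPZ against 18.2 and 17.7 CPM in EPZ (1.01 ± 0.17, adjusted p = 0.000735). It made up most of the summed level of the tested cancer-testis genes in EPZ, 25.4 and 25.5 CPM, and other members gave the rest.

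**Figure D1:**
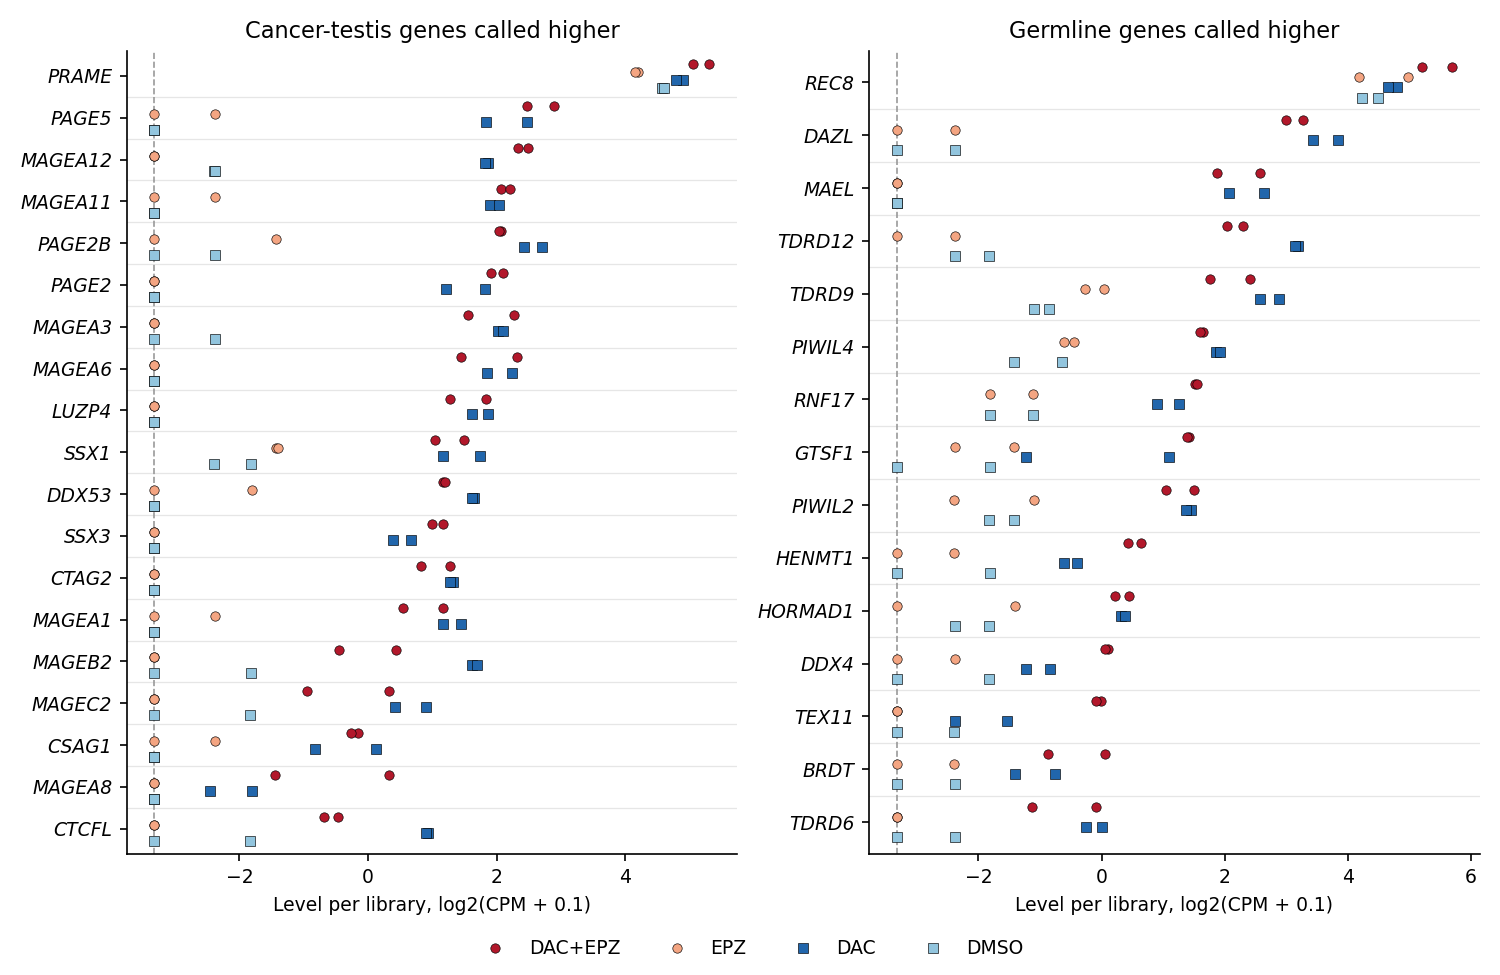
Level of each cancer-testis gene (left, 19 genes) and germline gene (right, 15 genes) called higher with DAC added to EPZ in Be(2)-C, as log2(CPM + 0.1) per library. Each point is 1 library, 2 per group, in the order DAC+EPZ, EPZ, DAC and DMSO down each row, and the dashed line marks 0 counts. For most genes the DAC+EPZ points lie right of the EPZ points by several log2 units, near the DAC points, while PRAME is well expressed in all 4 groups.

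Windows at the first listed start of DAZL, TDRD12, MAGEA12 and DDX4 are shown because DAC acts on CG methylation. The windows range from CG-rich to nearly without CG. Each window runs from 250 bases before to 50 after the first start listed by RefSeq (GRCh38.p14), 5′ to 3′ on the gene's strand, with every CG in capitals. DAZL lies on the minus strand at chr3:16605374-16605673 and its window holds 33 CG. TDRD12 lies on the plus strand at chr19:32719517-32719816 and holds 26 CG. MAGEA12 lies on the plus strand at chrX:152733507-152733806 and holds 9 CG. DDX4 lies on the plus strand and its window at chr5:55766635-55766934 holds 1 CG. Other starts of these genes were not looked at, so a window need not be the main promoter, and that of DDX4 may not be.
DAZL: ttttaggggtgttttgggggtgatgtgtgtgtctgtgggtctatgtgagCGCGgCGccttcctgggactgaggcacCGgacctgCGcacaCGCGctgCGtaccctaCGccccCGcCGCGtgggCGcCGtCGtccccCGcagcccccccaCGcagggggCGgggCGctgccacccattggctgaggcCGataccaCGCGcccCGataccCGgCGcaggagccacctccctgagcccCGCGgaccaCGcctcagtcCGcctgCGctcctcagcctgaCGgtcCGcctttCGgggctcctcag
TDRD12: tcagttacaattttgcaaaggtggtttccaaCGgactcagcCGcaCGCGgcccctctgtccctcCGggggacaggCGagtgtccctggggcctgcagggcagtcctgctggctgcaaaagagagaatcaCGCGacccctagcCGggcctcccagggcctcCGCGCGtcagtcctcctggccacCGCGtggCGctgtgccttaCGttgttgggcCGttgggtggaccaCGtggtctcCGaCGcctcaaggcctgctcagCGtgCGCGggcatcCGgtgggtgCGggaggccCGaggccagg
MAGEA12: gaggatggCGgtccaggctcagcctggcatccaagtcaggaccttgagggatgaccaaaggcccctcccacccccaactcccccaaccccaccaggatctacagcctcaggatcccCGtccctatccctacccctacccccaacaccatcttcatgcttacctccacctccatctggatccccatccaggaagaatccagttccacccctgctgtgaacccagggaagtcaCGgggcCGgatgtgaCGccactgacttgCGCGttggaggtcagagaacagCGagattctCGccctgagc
DDX4: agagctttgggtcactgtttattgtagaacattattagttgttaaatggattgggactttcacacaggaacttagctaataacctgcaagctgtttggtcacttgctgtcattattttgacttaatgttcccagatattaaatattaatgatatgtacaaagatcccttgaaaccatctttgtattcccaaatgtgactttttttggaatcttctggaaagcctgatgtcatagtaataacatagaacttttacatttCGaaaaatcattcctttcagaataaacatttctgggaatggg

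Over the 11922 tested genes with such a window, the median was 26 CG (quartiles 17 to 34). The 338 windows of genes called higher had a median of 19 CG (quartiles 10 to 29) and the 138 windows of genes called lower one of 26 (quartiles 15 to 36). Of the windows of higher genes 35 were on the X chromosome (10.4%), against 2 of the windows of lower genes (1.45%) and 464 of all windows (3.89%). Cancer-testis genes account for many of these, since 14 of the 16 windows of called cancer-testis genes were X-linked (87.5%), with a median of 13 CG. These figures describe the RefSeq sequence and say nothing of its methylation in the cells.

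Many genes listed for the ATF4 programme fell. Of 40 tested genes of the ATF4 and integrated stress response list, 20 were called lower and 0 higher, with a median change of -0.70, against 1.37% called lower over all tested genes. Of the 20 genes, 12 kept their calls, and without DAC+EPZ 1 the count was 12. The DAC+EPZ libraries lay below both EPZ libraries in 30 of the 40 genes and above both in 1. The genes that fell included transcription factors (ATF5, DDIT3, CEBPG, NUPR1), amino acid transporters (SLC7A11, SLC7A5, SLC3A2, SLC1A4, SLC1A5) and secreted factors (GDF15, INHBE, ADM2, STC2).

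GDF15, a stress-induced hormone of the TGF-beta family, had 0.267 and 0.419 CPM in DAC+EPZ and 17.7 and 12.1 CPM in EPZ. It fell by 5.42 ± 0.55 on the log2 scale (adjusted p = 1.96e-06). INHBE, an inhibin subunit known as an ATF4 target, had 1.34 and 1.57 CPM in DAC+EPZ and 15.9 and 16.7 CPM in EPZ (-3.49 ± 0.35, adjusted p = 1.65e-06). For both genes the groups were separated by about an order of magnitude or more. FAM129A (NIBAN1), a stress-responsive regulator of translation, had 0.623 and 0.105 CPM in DAC+EPZ and 6.72 and 5.55 CPM in EPZ (-3.96 ± 0.50). ADM2, a secreted peptide of the adrenomedullin family, had 0.801 and 0.839 CPM against 8.72 and 3.89 CPM (-2.93 ± 0.40). SLC7A11, the cystine importer that supplies glutathione synthesis, had 12.7 and 9.02 CPM in DAC+EPZ and 90.2 and 80.7 CPM in EPZ (-2.96 ± 0.27, adjusted p = 5.08e-07). All 5 genes kept their calls, and in all of them the DAC+EPZ libraries lay below both EPZ libraries.

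The following members were chosen after their values were seen. CHAC1, which breaks down glutathione, had 4.54 and 6.08 CPM in DAC+EPZ and 25.8 and 15.7 CPM in EPZ (-1.98 ± 0.33, adjusted p = 0.000828). ASNS, asparagine synthetase, had 92.2 and 86.1 CPM against 203 and 154 CPM (-1.0 ± 0.15, adjusted p = 0.000254). SLC7A5 and SLC3A2, which pair as the importer of large neutral amino acids, fell by 1.30 ± 0.17 and 0.78 ± 0.13, SLC7A5 with 82.6 and 100.3 CPM in DAC+EPZ against 276 and 172 CPM in EPZ. These 4 genes kept their calls. DDIT3 (CHOP) had 14.5 and 14.8 CPM against 27.1 and 25.4 CPM (-0.84 ± 0.20, adjusted p = 0.0183), and it lost its call without any 1 of the 4 libraries (adjusted p 0.0553 to 0.135). ATF4 itself was not called: its mRNA had 550.1 and 523 CPM in DAC+EPZ and 560.3 and 502 CPM in EPZ (0.01 ± 0.12, adjusted p = 0.980). ATF4 is known to be controlled largely at translation, which was not measured.

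**Figure D2:**
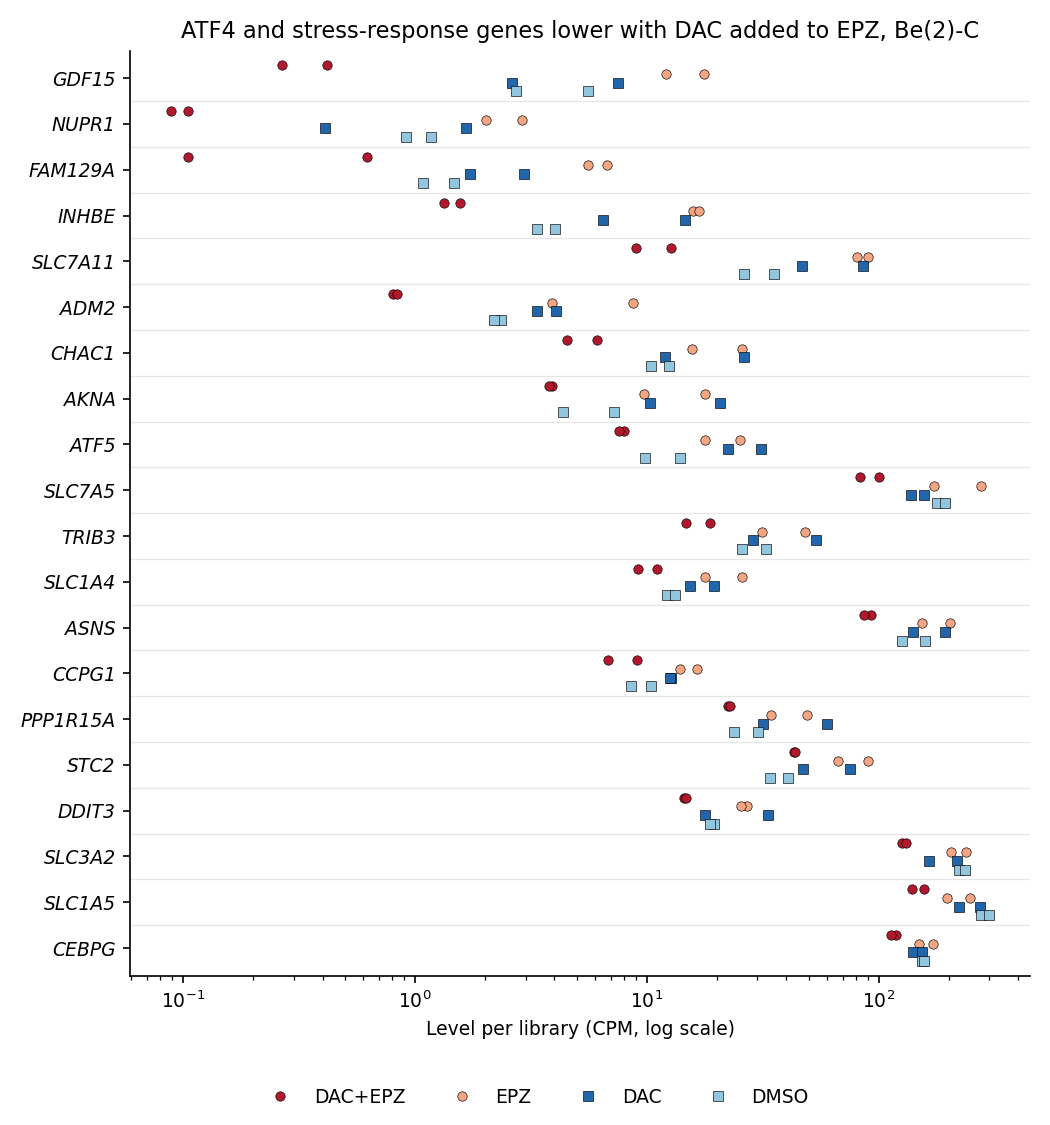
Level per library (CPM, log scale) of the 20 genes of the ATF4 and stress response list called lower with DAC added to EPZ in Be(2)-C. Each point is 1 library, 2 per group, in the order DAC+EPZ, EPZ, DAC and DMSO down each row. The DAC+EPZ points lie left of the EPZ points in every row, and for genes such as GDF15 and SLC7A11 they also lie left of the DAC and DMSO points.

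The EPZ libraries differed from each other in this list. Of the members above, ADM2, CHAC1, SLC7A5, ASNS and GDF15 were all higher in EPZ 1 than in EPZ 2, and the list's summed level was 2948 and 2887 CPM in DAC+EPZ and 4041 and 3611 CPM in EPZ. In the other Be(2)-C groups the sum was 3419 and 3907 CPM with DAC alone and 3301 and 3525 CPM with DMSO. The DAC+EPZ sums were thus the lowest of the 8 Be(2)-C libraries and the EPZ 1 sum the highest. The part of the difference between the EPZ libraries in the result was not tested beyond leaving each out.

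Windows of CHAC1, ASNS and SLC3A2 are shown because they hold the core of the amino acid response element, the site through which ATF4 acts. The core was searched as TGATGNAA on both strands of the same RefSeq windows (GRCh38.p14), and the match is in capitals, read on the other strand in CHAC1 and SLC3A2. In CHAC1 (chr15:40953221-40953520, plus strand) the match begins at position -209 from the start and in ASNS (chr7:97872359-97872658, minus strand) at -68. In SLC3A2 (chr11:62881449-62881748, plus strand) it begins at 38, past the start.
CHAC1: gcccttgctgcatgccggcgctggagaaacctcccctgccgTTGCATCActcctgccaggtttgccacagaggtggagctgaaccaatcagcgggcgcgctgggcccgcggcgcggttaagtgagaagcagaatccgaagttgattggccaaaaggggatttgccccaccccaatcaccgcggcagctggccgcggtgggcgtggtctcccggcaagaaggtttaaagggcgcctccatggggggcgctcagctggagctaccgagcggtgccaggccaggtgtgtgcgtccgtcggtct
ASNS: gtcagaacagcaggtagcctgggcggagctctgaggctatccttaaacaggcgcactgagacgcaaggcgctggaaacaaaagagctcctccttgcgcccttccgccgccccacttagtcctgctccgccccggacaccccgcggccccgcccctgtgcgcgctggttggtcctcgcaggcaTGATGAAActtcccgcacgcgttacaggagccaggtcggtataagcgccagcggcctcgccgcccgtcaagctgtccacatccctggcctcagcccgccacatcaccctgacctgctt
SLC3A2: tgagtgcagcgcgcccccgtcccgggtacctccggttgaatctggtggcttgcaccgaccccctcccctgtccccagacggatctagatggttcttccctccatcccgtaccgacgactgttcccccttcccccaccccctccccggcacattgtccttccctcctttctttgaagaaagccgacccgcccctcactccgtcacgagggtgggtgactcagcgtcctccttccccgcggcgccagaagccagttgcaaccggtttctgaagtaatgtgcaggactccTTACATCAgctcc

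The core occurred in 212 of all 11922 windows (1.78%), in 6 of the 35 windows of tested list members (17.1%) and in 3 of the 17 windows of members called lower (17.6%). Over all genes called lower its share was 6.52%, and over those called higher 1.48%. An E2F site (TTCCCGCC, both strands) was in 10.1% of windows of lower genes, 3.55% of windows of higher genes and 4.97% of all windows. The E-box (CACGTG) was in 10.1%, 8.88% and 9.96% of these, and the core of the antioxidant response element (TGACNNNGC) in 18.8%, 13.3% and 14.8%. The core of the interferon-stimulated response element was in 4.35%, 5.03% and 2.68%. Each was searched on both strands, a window can hold several of them, and a match describes letters, not binding.

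Gene groups next to the ATF4 programme fell in smaller numbers, and their counts depended on the fit: with the 4 libraries alone 1 tRNA synthetase gene and 1 unfolded protein response gene were called. Of 21 tRNA synthetase genes, with the tRNA exporter XPOT among them, 7 were called lower and 0 higher (median -0.21). WARS, the tryptophanyl-tRNA synthetase, had 104 and 106 CPM in DAC+EPZ and 215 and 189 CPM in EPZ (-0.94 ± 0.12, adjusted p = 5.29e-05), and it kept its call. MARS and GARS, for methionine and glycine, each fell by 0.54, with SE 0.11 and 0.12, and each lost its call without 1 library, with adjusted p up to 0.105 (MARS, without DAC+EPZ 1) and 0.182 (GARS, without EPZ 1). The count of the list was 1 without DAC+EPZ 1, 3 without DAC+EPZ 2 and 2 without EPZ 1.

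Of 18 genes of serine synthesis and the folate cycle, 5 were called lower and 1 higher (median -0.27). SHMT2, which passes a carbon unit from serine to folate in mitochondria, had 97.5 and 98.7 CPM in DAC+EPZ and 188 and 175 CPM in EPZ (-0.89 ± 0.15, adjusted p = 0.000969), and it kept its call. MTHFD2 and MTHFD1L, mitochondrial folate enzymes, fell by 0.60 ± 0.12 and 0.64 ± 0.12. MTHFD2 lost its call without DAC+EPZ 2 (adjusted p = 0.109) and without EPZ 2 (0.0621), and MTHFD1L without DAC+EPZ 1 (0.0719). The count of lower members was 2 without DAC+EPZ 1 and 3 without either DAC+EPZ 2 or EPZ 1. The member called higher was ALDH1L1, a cytosolic enzyme that removes formyl-folate, with 6.95 and 9.33 CPM in DAC+EPZ against 3.09 and 4.63 CPM in EPZ (1.07 ± 0.28, adjusted p = 0.0275, and 0.287 without DAC+EPZ 2 and 0.196 without EPZ 1).

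Of 26 unfolded protein response genes 5 were called lower and 0 higher (median -0.23), with counts of 1 to 2 when any 1 of the 4 libraries was left out. EDEM1, which hands misfolded glycoproteins over for degradation, had 14.0 and 13.5 CPM in DAC+EPZ and 29.6 and 23.6 CPM in EPZ (-0.95 ± 0.17, adjusted p = 0.00176), and it kept its call. SEL1L, a scaffold of that degradation, and HYOU1, a chaperone of the endoplasmic reticulum, fell by 0.51 ± 0.12 and 0.44 ± 0.12. SEL1L lost its call without DAC+EPZ 1, DAC+EPZ 2 or EPZ 2 (adjusted p 0.0999 to 0.147) and HYOU1 without any 1 of the 4 (0.105 to 0.206).

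Of 38 genes of the NRF2 programme, which protects cells against oxidants, 5 were called lower and 0 higher (median -0.24), and 2 without DAC+EPZ 2. HMOX1, which degrades haem, had 2.49 and 1.57 CPM in DAC+EPZ and 37.9 and 29.2 CPM in EPZ. It fell by 4.02 ± 0.36 (adjusted p = 3.97e-07) and kept its call. AKR1C3, a ketosteroid reductase, had 25.2 and 19.3 CPM against 43.6 and 44.0 CPM (-0.97 ± 0.17, adjusted p = 0.00125, and 0.0535 without DAC+EPZ 2). SLC7A11, also of this list, is described above, so the lists are not independent.

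Other genes among the 12 with the lowest changes were ULBP1, a ligand of the killer cell receptor NKG2D, and SEL1L3, a relative of SEL1L. ULBP1 had 0.623 and 0.734 CPM in DAC+EPZ and 3.45 and 3.15 CPM in EPZ (-2.27 ± 0.40), and SEL1L3 had 1.16 and 1.36 CPM against 5.99 and 6.39 CPM (-2.29 ± 0.28), and both kept their calls. WT1, a transcription factor of kidney and gonad development, fell by 3.11 ± 0.65, with 0.0890 and 0.210 CPM in DAC+EPZ against 1.82 and 0.833 CPM in EPZ (adjusted p = 0.00624, and 0.111 without DAC+EPZ 1 and 0.0949 without EPZ 1). PCDH19, a cell adhesion gene, ALPK1, a kinase that senses bacterial sugars, and DUSP5P, a pseudogene, fell by 2.62 ± 0.68, 2.62 ± 0.62 and 2.66 ± 0.74. Each of the 3 kept its call in only 1 of the 4 fits without a library: PCDH19 without EPZ 2 (adjusted p = 0.0235, otherwise up to 0.198), ALPK1 without EPZ 1 (0.0440, otherwise up to 0.142) and DUSP5P without EPZ 1 (0.0313, otherwise up to 0.308).

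**Figure D3:**
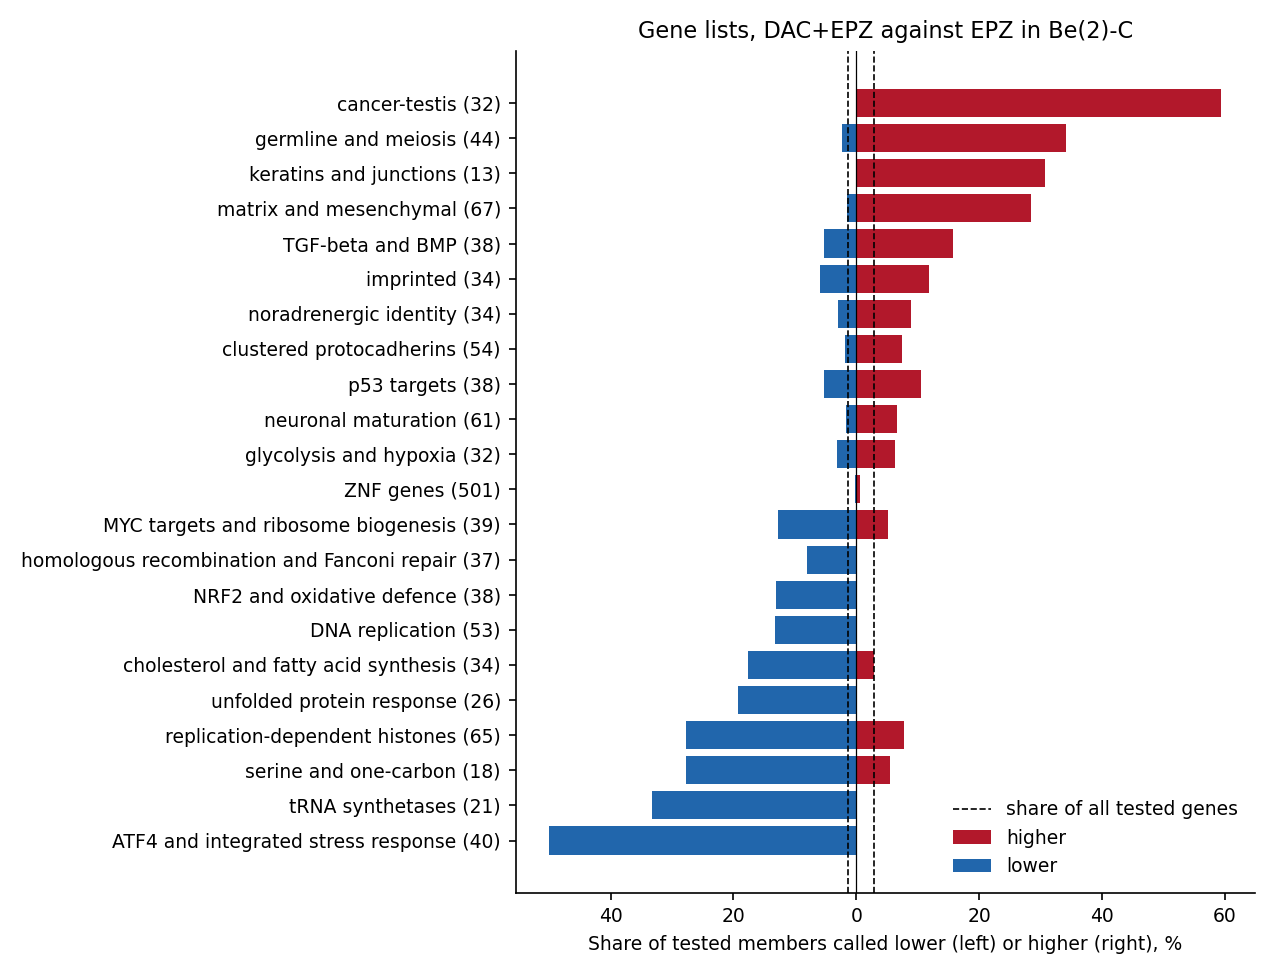
Share of the tested members of each gene list (number tested in parentheses) called higher (right, red) or lower (left, blue) with DAC+EPZ against EPZ in Be(2)-C, in percent. Dashed lines mark the shares over all tested genes, 2.84% higher and 1.37% lower. Cancer-testis and germline genes lie at the higher end and the ATF4 list, with 20 of 40 members called lower, at the other.

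The same addition of DAC without EPZ, DAC against DMSO in Be(2)-C, called 1069 genes (6.7%), 595 higher (3.73%) and 474 lower (2.97%). The libraries of this comparison are not those of DAC+EPZ against EPZ. Of the genes higher with DAC added to EPZ, 237 were also called higher without EPZ, 52.2% of the 454 and 39.8% of the 595. Of the genes lower with DAC added to EPZ, 72 were also called lower without EPZ, 33.0% of the 218 and 15.2% of the 474, and 15 were called higher there. The germline and cancer-testis rise was present in both: without EPZ 21 of 32 cancer-testis genes and 10 of 44 germline genes were called higher. DAZL had 14.2 and 10.7 CPM with DAC and 0 and 0.0918 CPM with DMSO, and MAEL had 4.11 and 6.11 CPM with DAC and 0 counts with DMSO. Without EPZ, 297 genes were called without DMSO 1, 374 without DMSO 2, 443 without DAC 1 and 583 without DAC 2.

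Genes of the ATF4 list did not follow this pattern. Without EPZ, 9 of the 40 genes of the ATF4 list were called higher and 0 lower (median 0.35). In the test of the difference, DAC added to EPZ minus DAC without EPZ, 41 genes were called over all (0.257%), 39 of them below 0 (0.244%) and 2 above. Of the 39 genes, 13 were among the 40 of the ATF4 list. The counts below 0 were 16 without DMSO 1, 18 without DAC 2, and 24 without either DAC+EPZ library. The 2 genes above 0, DBI and DCN, had differences of 0.96 each, and they lost their calls in most fits without 1 library, with adjusted p up to 0.347 (DBI) and 0.373 (DCN), both without DAC+EPZ 1.

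INHBE had a difference of -4.99 ± 0.46 (adjusted p = 4.63e-06): it fell with DAC added to EPZ but rose without EPZ by 1.5 ± 0.30 (adjusted p = 0.00390), with 6.5 and 14.6 CPM with DAC and 3.35 and 4.04 CPM with DMSO. SLC7A11 had a difference of -4.06 ± 0.37, with 46.8 and 85.2 CPM with DAC and 26.2 and 35.4 CPM with DMSO (1.10 ± 0.24, adjusted p = 0.00849). GDF15 had 2.63 and 7.5 CPM with DAC and 2.72 and 5.60 CPM with DMSO, and its difference was -5.69 ± 0.72 (adjusted p = 0.000233). HMOX1 had 6.17 and 16.1 CPM with DAC and 5.80 and 8.91 CPM with DMSO, and its difference was -4.60 ± 0.48 (adjusted p = 2.53e-05). In GDF15, HMOX1 and SLC7A11 both DAC+EPZ libraries lay below both DMSO libraries, which lay below both EPZ libraries. INHBE, FAM129A, ULBP1 and ATF5 had the same order, but not every gene called in the difference did. SEL1L3 had 1.16 and 1.36 CPM in DAC+EPZ, above its 0.272 and 0.275 CPM in DMSO. STC2 had 42.9 and 43.5 CPM in DAC+EPZ, 34.1 and 40.7 CPM in DMSO and 89.8 and 67.0 CPM in EPZ. FAM129A, SEL1L3 and ULBP1 had differences of -4.82 ± 0.69, -4.46 ± 0.57 and -4.17 ± 0.54. ATF5, which ATF4 induces, had a difference of -2.62 ± 0.31, falling by 1.46 ± 0.22 with DAC added to EPZ and rising by 1.16 ± 0.21 without EPZ. In several of these genes DAC 2 lay well above DAC 1, as for INHBE, HMOX1 and GDF15. The 6 genes named by the rule here (INHBE, GDF15, HMOX1, FAM129A, SEL1L3, ULBP1) kept the call of the difference without each of the 8 Be(2)-C libraries in turn.

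**Figure D4:**
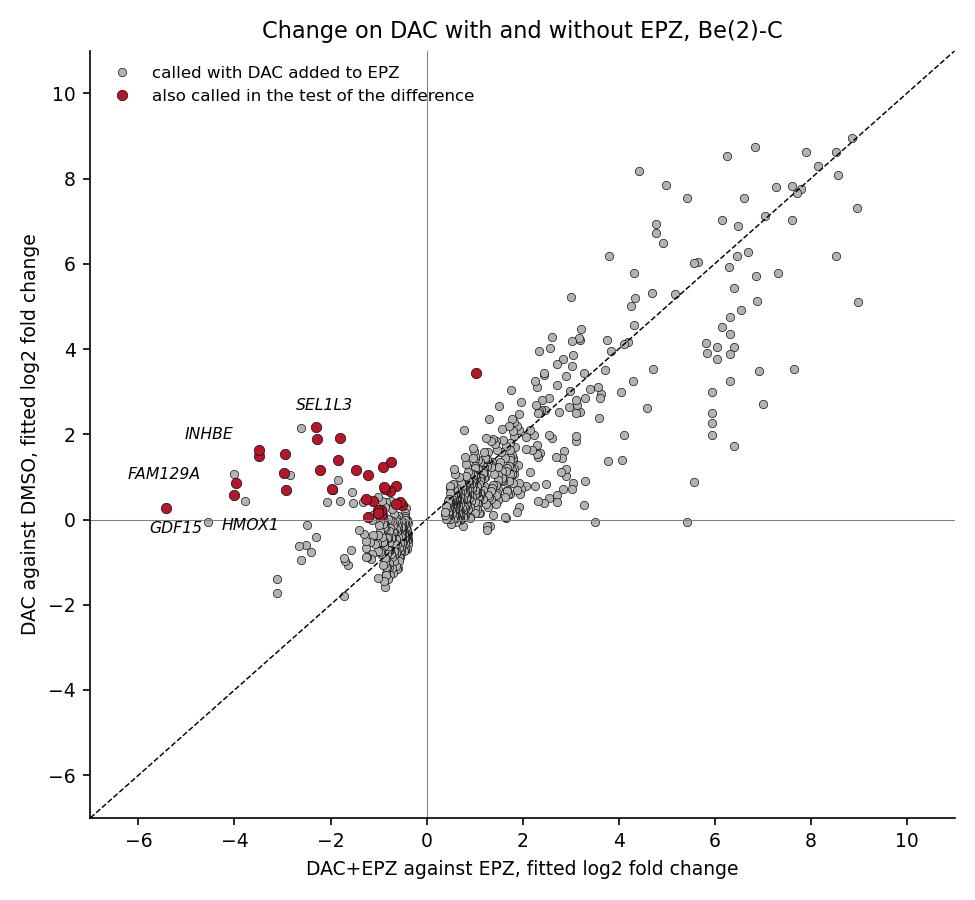
Fitted log2 change on DAC with EPZ (DAC+EPZ against EPZ, horizontal) and without EPZ (DAC against DMSO, vertical) in Be(2)-C, for each gene called with DAC added to EPZ. Red points are genes that were also called in the test of the difference and grey points are the rest, and the dashed line marks equal change. Red points lie almost all at the upper left, lower with EPZ and near or above 0 without it, among them GDF15, INHBE, HMOX1, FAM129A and SEL1L3, and fitted values of genes without counts in a group depend on the prior count.

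Histone genes used in S phase fell in part. Of 65 replication-dependent histone genes 18 were called lower and 5 higher (median -0.40). The lower count was 11 without DAC+EPZ 1, 3 without DAC+EPZ 2 and 9 without EPZ 1. HIST1H4I, chosen after its values were seen, had 85.6 and 83.7 CPM in DAC+EPZ and 154 and 158 CPM in EPZ (-0.88 ± 0.16, adjusted p = 0.00177), and kept its call. Of the higher members, HIST1H1T encodes the linker histone of the testis, and it had 15.2 and 15.3 CPM in DAC+EPZ and 2.81 and 3.61 CPM in EPZ (2.25 ± 0.21, adjusted p = 5.08e-07). HIST1H1A, another linker histone, had 76 counts against 2 (ratio 39.9, interval 10.7 to 336), and HIST1H4F had 107 counts against 0, at least 37.5-fold higher. These 3 genes kept their calls, and histone copies can share reads. Without EPZ 52 of the 65 genes were called lower and 5 higher (median -0.96), and the summed level of the list was 8036 and 7104 CPM in DAC+EPZ, 11010.1 and 9262 CPM in EPZ, 9777 and 10982 CPM in DAC and 21552 and 19839 CPM in DMSO.

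Of 53 DNA replication genes 7 were called lower and 0 higher (median -0.25), with counts of 2 without either DAC+EPZ library and 1 without EPZ 2. UHRF1, which brings DNMT1 to replicating DNA, had 71.6 and 81.3 CPM in DAC+EPZ and 122 and 117 CPM in EPZ (-0.65 ± 0.11, adjusted p = 0.000969), and kept its call. GINS1, a part of the replicative helicase, fell by 0.76 ± 0.16 (adjusted p = 0.00556, and 0.146 without DAC+EPZ 2 and 0.133 without EPZ 2). CLSPN, a checkpoint adaptor, fell by 0.62 ± 0.14 (adjusted p = 0.0114, and up to 0.138, without DAC+EPZ 2, in the fits other than that without EPZ 1). Of 37 homologous recombination and Fanconi genes 3 were called lower, with 0 without DAC+EPZ 2 and 1 without EPZ 2: BRCA1 fell by 0.62 ± 0.12, EXO1 by 0.53 ± 0.12 and XRCC2 by 0.63 ± 0.15, with adjusted p of 0.0687, 0.141 and 0.199 without DAC+EPZ 2. Of 62 mitosis genes 1 was called lower (1.61%, against 1.37% of all tested genes, median -0.19), with 5 without EPZ 1 and 0 without each other library. Without EPZ 23 were called lower (median -0.38). The difference between the comparisons with and without EPZ was tested gene by gene, and 0 of the replication, 0 of the mitosis and 0 of the histone genes were called in it. With 0.257% of all tested genes called in it, these counts say little. The fitted difference, with minus without EPZ, was above 0 in 43 of 53 replication, 59 of 62 mitosis and 62 of 65 histone genes. Its medians were 0.20, 0.20 and 0.50, against 0.003 over all tested genes. These shifts of whole lists were not tested.

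By number, matrix and mesenchymal genes were the largest list of higher genes outside the germline and cancer-testis lists. Of 67 tested members 19 were called higher and 1 lower (median 0.44), and 9 of the higher ones kept their calls. The share called was 29.9%, against 4.21% of all tested genes and 30.8% of the shorter keratin and junction list. The higher count was 12 without DAC+EPZ 1 or without EPZ 2. FN1, fibronectin, had 84.4 and 101 CPM in DAC+EPZ and 27.8 and 24.7 CPM in EPZ (1.82 ± 0.14, adjusted p = 1.01e-07). SPARC, a matrix protein that binds collagen, had 57.5 and 64.9 CPM against 23.3 and 21.4 CPM (1.45 ± 0.12, adjusted p = 1.68e-07). COL11A1, a collagen of cartilage, had 5.43 and 4.72 CPM against 0.363 and 0 CPM (4.72 ± 0.52). Both DAC+EPZ libraries lay well above both EPZ libraries in these 3 genes, which kept their calls. For FN1 the DAC libraries had 24.8 and 21.3 CPM and the DMSO libraries 10.5 and 9.82 CPM, so that the level was highest in DAC+EPZ, and the difference with minus without EPZ was 0.64 ± 0.22 (adjusted p = 0.481). AXL, a receptor kinase of mesenchymal neuroblastoma cells, was chosen after its values were seen: it had 5.25 and 5.56 CPM in DAC+EPZ and 1.18 and 1.39 CPM in EPZ (2.06 ± 0.36, adjusted p = 0.00108) and kept its call. The member called lower was ACTA2, smooth muscle actin, with 9.08 and 7.34 CPM against 21.8 and 14.3 CPM (-1.13 ± 0.25, adjusted p = 0.00916, and 0.134 without DAC+EPZ 2 and 0.119 without EPZ 1). Fibroblast markers share members with this list, LUM and DCN among them. They summed to 263 and 273 CPM in DAC+EPZ and 236 and 230 CPM in EPZ, and their part in the result was not tested.

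Of 38 genes of TGF-beta and BMP signalling 6 were called higher and 2 lower, the 2 being GDF15 and INHBE. TGFB3, a ligand, had 20.7 and 19 CPM in DAC+EPZ and 5.90 and 7.5 CPM in EPZ (1.57 ± 0.19, adjusted p = 1.52e-05), and kept its call. The count of higher members was 3 without DAC+EPZ 1 and 2 without each of the other 3 libraries. Of 13 keratin and junction genes 4 were called higher and 0 lower. KRT19, a keratin of simple epithelia, had 16.3 and 19.2 CPM in DAC+EPZ and 3.72 and 3.42 CPM in EPZ (2.31 ± 0.32, adjusted p = 0.000156). KRT8 had 5.52 and 5.56 CPM against 0.817 and 1.30 CPM (2.38 ± 0.38), and both kept their calls. JUP, plakoglobin, rose by 0.89 ± 0.20 (adjusted p = 0.00966, and 0.163 without DAC+EPZ 2 and 0.157 without EPZ 2). The 6 epithelial markers summed to 29.1 and 32.4 CPM in DAC+EPZ and 9.44 and 8.70 CPM in EPZ, with 0 of them at 0 in all 4 libraries, and the part of other cells in this rise was not tested.

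Imprinted genes, expressed from the allele of 1 parent, rose in part. Of 34 tested members 4 were called higher and 2 lower (median 0.17), and all 4 higher genes but 0 of the 2 lower genes kept their calls. The lower count was 0 without DAC+EPZ 1 and 1 without DAC+EPZ 2 or EPZ 1. H19, a noncoding RNA normally expressed from the maternal allele, had 82.3 and 99.6 CPM in DAC+EPZ and 1.73 and 1.85 CPM in EPZ (5.66 ± 0.21, adjusted p = 2.51e-13). MEST, from the paternal allele, had 3.29 and 4.82 CPM against 0.545 and 0.370 CPM (3.10 ± 0.34), and MKRN3, also paternal, had 6.23 and 6.40 CPM against 0.817 and 0.925 CPM (2.84 ± 0.34). Each lay far above EPZ in both libraries, and the DAC libraries were close, with 118 and 122 CPM for H19 against 2.18 and 1.47 CPM in DMSO.

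Neuronal genes were tested in 2 lists, of maturation and of noradrenergic identity. Of 61 neuronal maturation genes 4 were called higher and 1 lower (8.20% in all, against 4.21% of all tested genes), with a median of 0.02, and the higher count was 2 without DAC+EPZ 2 and 7 without EPZ 1. NGFR, the low-affinity neurotrophin receptor, had 29.5 and 33.6 CPM in DAC+EPZ and 8.17 and 8.33 CPM in EPZ (1.93 ± 0.26, adjusted p = 6.03e-05). NTRK3, the receptor of neurotrophin NT-3, had 5.25 and 4.93 CPM against 1.45 and 1.57 CPM (1.75 ± 0.33). Without EPZ, NGFR had 6.66 and 9.08 CPM with DAC and 1.99 and 1.65 CPM with DMSO. Both receptors lay higher in both DAC+EPZ libraries than in both EPZ libraries, and both kept their calls. Of 34 noradrenergic identity genes 3 were called higher and 1 lower (11.8% in all, median -0.03). The higher count was 5 without EPZ 1 and 1 without EPZ 2, and the lower count 0 without DAC+EPZ 1 or EPZ 1 and 4 without EPZ 2. SLC18A2, the vesicle transporter of monoamines, had 41.3 and 43.1 CPM against 22.0 and 25.4 CPM (0.83 ± 0.16, kept its call), and CHGB, a secretory granule protein, rose by 0.60 ± 0.13 (adjusted p = 0.00722, and 0.119 without DAC+EPZ 2 and 0.0658 without EPZ 2). ALK, a receptor kinase often mutated in neuroblastoma, had 33.0 and 41.3 CPM against 66.8 and 55.5 CPM (-0.72 ± 0.15, adjusted p = 0.00688, and 0.139 without DAC+EPZ 1 and 0.0688 without EPZ 1). Of 54 clustered protocadherin genes 4 were called higher and 1 lower, with a higher count of 1 without any 1 of the 4 libraries. PCDHB5 had 11.6 and 13.6 CPM in DAC+EPZ and 1.82 and 1.20 CPM in EPZ (3.05 ± 0.25, kept its call), while PCDHB17 and PCDHGA11 rose by 2.27 ± 0.57 and 1.43 ± 0.37 and lost their calls without any 1 of the 4 libraries (adjusted p 0.0877 to 0.154 and 0.0511 to 0.264). Protocadherin copies can share reads.

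Of 34 cholesterol and fatty acid synthesis genes 6 were called lower and 1 higher (median -0.19), with lower counts of 1 without DAC+EPZ 1 and 2 without DAC+EPZ 2 or EPZ 2. ACAT2, an early enzyme of cholesterol synthesis, had 32.8 and 28.5 CPM in DAC+EPZ and 40.6 and 49.2 CPM in EPZ. It fell by 0.55 ± 0.12 (adjusted p = 0.0109, and 0.170 without DAC+EPZ 2 and 0.176 without EPZ 2). Of 39 MYC target and ribosome biogenesis genes 5 were called lower and 2 higher, and the lower count was 0 without each library other than EPZ 1. LYAR, a nucleolar protein, fell by 0.52 ± 0.12 (adjusted p up to 0.163, without DAC+EPZ 2), and IMPDH2, of guanine nucleotide synthesis, rose by 0.43 ± 0.11 but lost its call without any 1 library (adjusted p 0.0684 to 0.128). LDHA, lactate dehydrogenase A, had 48.1 and 46.9 CPM in DAC+EPZ and 22.2 and 25.2 CPM in EPZ (1.00 ± 0.11, adjusted p = 9.93e-06), and kept its call. Of 32 glycolysis and hypoxia genes 2 were called higher, LDHA and NDRG1, and 1 lower, HK2, with a higher count of 1 without DAC+EPZ 2 or either EPZ library. NDRG1, induced by hypoxia, rose by 1.02 ± 0.24 (adjusted p up to 0.237, without DAC+EPZ 2) and HK2, hexokinase, fell by 0.50 ± 0.12 (0.222 without DAC+EPZ 1 and 0.105 without EPZ 1).

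The p53 targets gave 4 higher and 2 lower genes of 38 (median 0.07), with a higher count of 1 without DAC+EPZ 1 or either EPZ library and 0 without DAC+EPZ 2. BTG2, an inhibitor of proliferation, had 65.8 and 71.4 CPM in DAC+EPZ and 45.5 and 47.1 CPM in EPZ (0.57 ± 0.11, adjusted p = 0.00406, and 0.0739 without DAC+EPZ 2). TNFRSF10B, a death receptor that CHOP also induces, fell by 1.01 ± 0.23 (adjusted p = 0.0112, and 0.0829 to 0.110 without DAC+EPZ 1, DAC+EPZ 2 or EPZ 1). CDKN1A, the best known p53 target, was not called, with 11.2 and 10.3 CPM in DAC+EPZ and 11.3 and 7.77 CPM in EPZ (0.17 ± 0.20, adjusted p = 0.750).

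Interferon-stimulated genes gave 2 higher and 0 lower of 44 (median 0.33), and 1 higher without DAC+EPZ 2 or either EPZ library. The share called, 4.55%, was close to the 4.21% of all tested genes. They were STAT2, a signal transducer of interferon (0.55 ± 0.13), and BST2, which tethers viruses (2.62 ± 0.37). BST2 had 7.03 and 7.13 CPM in DAC+EPZ and 1.09 and 1.20 CPM in EPZ and kept its call, while STAT2 lost it without any 1 library (adjusted p 0.0842 to 0.137). HOX genes (18 tested), antigen presentation genes (15), lysosome and autophagy genes (30), heat shock genes (17), metallothioneins (5), Polycomb machinery genes (30) and nucleoside uptake and activation genes (15) gave 0 called genes. Lists this short can hold 0 called genes at the share of all tested genes, so their counts say little. Of 56 developmental regulators bound by Polycomb 1 was called higher (MSX2) and 1 lower (WT1), 3.57% in all. Of 501 zinc finger genes 3 were called higher and 1 lower (0.798%). Of 82 ribosomal protein genes 2 were called higher and 0 lower (2.44%, with 6 higher without EPZ 1 and 1 without each other library). These 3 shares were all below the 4.21% of all tested genes. Of the zinc finger genes ZNF323 rose by 0.91 ± 0.17 and kept its call. ZNF589 rose by 0.72 ± 0.17 (adjusted p = 0.0156, and 0.216 without DAC+EPZ 2 and 0.163 without EPZ 1). ZNF812 had 23 counts against 1 (ratio 24.2, interval 3.92 to 996, adjusted p = 0.0158, and 0.142 without DAC+EPZ 1 and 0.144 without EPZ 2).

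The mRNAs of the drugs' targets were not called. DNMT1, the maintenance methyltransferase that decitabine traps, had 167 and 187 CPM in DAC+EPZ and 214 and 161 CPM in EPZ (-0.09 ± 0.13, adjusted p = 0.813). DNMT3A and DNMT3B, which set new methylation, changed by 0.17 ± 0.10 (adjusted p = 0.438) and 0.01 ± 0.15 (adjusted p = 0.990). EZH2 had 59.5 and 60.2 CPM against 62.7 and 69.1 CPM (-0.14 ± 0.11, adjusted p = 0.582), and its relative EZH1 changed by 0.20 ± 0.13 (adjusted p = 0.468). MYCN, an oncogene of high-risk neuroblastoma, had 3824 and 4003 CPM in DAC+EPZ and 4705 and 3209 CPM in EPZ (-0.02 ± 0.14, adjusted p = 0.981). The EPZ libraries thus lay on both sides of the DAC+EPZ libraries for DNMT1 and MYCN.

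In IMR5-75 the same comparison, DAC+EPZ against EPZ, called 6005 genes (37.6%), 3307 higher (20.7%) and 2698 lower (16.9%), and 3737 without IMR5-75 EPZ 2. Of the genes higher in Be(2)-C, 316 were also higher in IMR5-75, 69.6% of the 454 and 9.56% of the 3307, and 11 were lower there. Of the genes lower in Be(2)-C, 96 were also lower in IMR5-75, 44.0% of the 218 and 3.56% of the 2698, and 27 were higher there. The test of the difference between the lines, Be(2)-C minus IMR5-75, called 1662 genes (10.4%), 718 above 0 (4.5%) and 944 below (5.91%). Its count was 874 without Be(2)-C DAC+EPZ 1, 884 without IMR5-75 EPZ 2 and 1098 without IMR5-75 DAC+EPZ 2.

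Cancer-testis and germline genes were called higher more often in IMR5-75, 31 of 32 and 33 of 44, against 19 and 15 in Be(2)-C. Over all tested genes 20.7% were called higher in IMR5-75 and 2.84% in Be(2)-C. The low-count filter took in all 16 libraries. A gene could thus pass it through IMR5-75 libraries alone, which favours calls in that line. DAZL had 101 and 86.6 CPM in DAC+EPZ and 0.0788 and 0 CPM in EPZ there. In the test of the difference 3 cancer-testis and 7 germline genes were called below 0 and 0 above, among them TDRD9 (-4.79 ± 0.70) and PRAME (-3.42 ± 0.40). These are 9.4% and 15.9% of the tested members, against 5.91% of all tested genes. Clustered protocadherins were called higher in 48 of 54 cases in IMR5-75 (median 3.13), against 4 in Be(2)-C (median 0.26), with 39 called below 0 in the difference. For p53 targets the figures were 27 of 38 in IMR5-75 against 4 in Be(2)-C, with 19 called below 0. Replication and mitosis genes were called lower in 50 of 53 and 59 of 62 cases in IMR5-75, against 7 and 1 in Be(2)-C, with 19 and 52 called above 0 in the difference. Over all tested genes 16.9% were called lower in IMR5-75 and 1.37% in Be(2)-C, and 4.5% were above 0 and 5.91% below 0 in the difference. The counts of the lines therefore stand against unlike shares of all tested genes.

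The stress genes also differed between the lines. Of the 40 genes of the ATF4 list 10 were called higher and 8 lower in IMR5-75 (median 0.15). These counts are near the shares of all tested genes there, 20.7% higher and 16.9% lower. In the difference between lines 20 of the 40 were called below 0, against 5.91% of all tested genes, and 0 above. GDF15 had 11.4 and 14.5 CPM in DAC+EPZ and 0.394 and 0.236 CPM in EPZ in IMR5-75, a rise of 5.32 ± 0.53 (adjusted p = 1.13e-07) where it fell in Be(2)-C. HMOX1 had 16.7 and 17.6 CPM against 8.04 and 7.87 CPM there (1.11 ± 0.29, adjusted p = 0.00479), again opposite to Be(2)-C. SLC7A11 fell in both lines, by 1.24 ± 0.31 in IMR5-75 (adjusted p = 0.00347) against 2.96 ± 0.27 in Be(2)-C, and the difference of -1.73 ± 0.42 was called (adjusted p = 0.00960). ASNS fell by 0.60 ± 0.16 in IMR5-75, and its difference was not called (-0.40 ± 0.22, adjusted p = 0.260). LDHA went the other way, with 383 and 373 CPM in DAC+EPZ and 734 and 707 CPM in EPZ in IMR5-75 (-0.93 ± 0.10), against its rise in Be(2)-C (difference 1.93 ± 0.15, adjusted p = 2.08e-08).

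**Figure D5:**
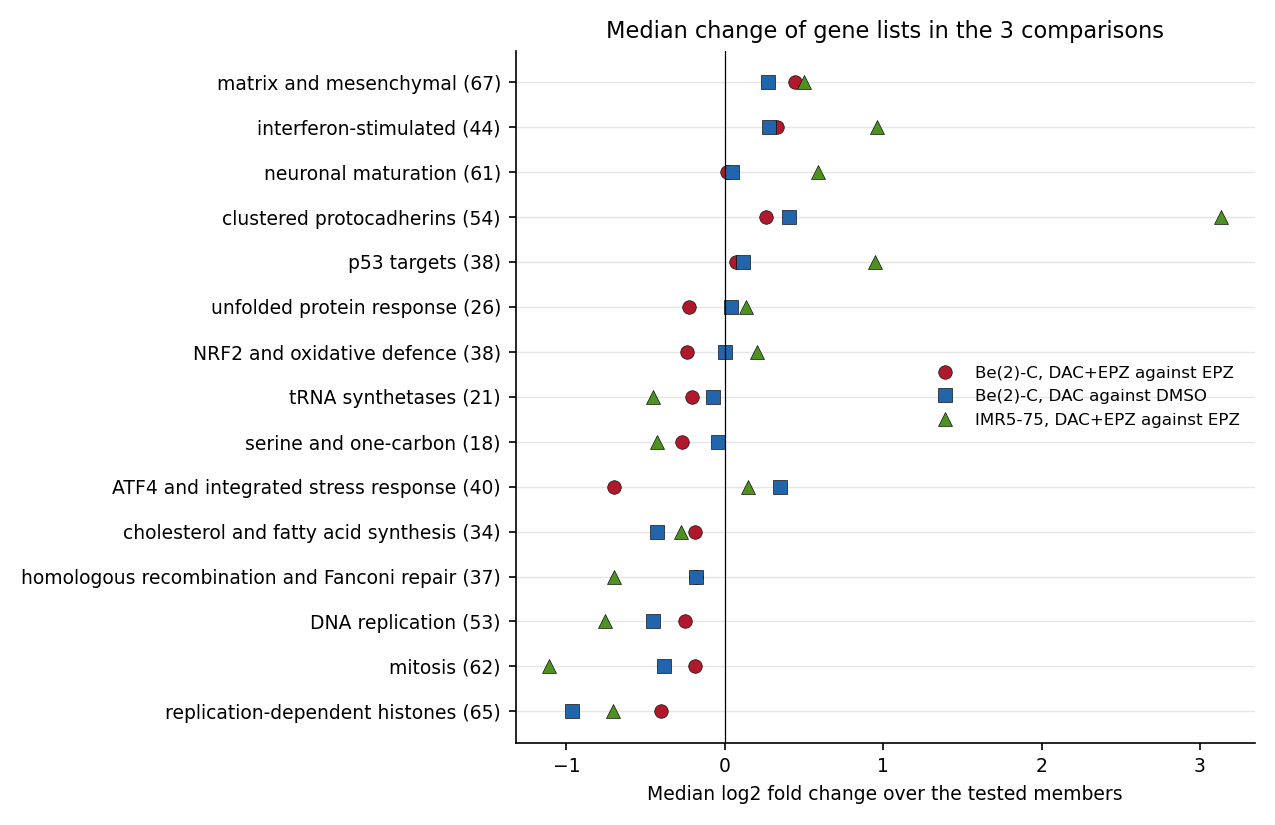
Median log2 change over the tested members of 15 gene lists (number tested in parentheses) in 3 comparisons that share no library: DAC+EPZ against EPZ in Be(2)-C (red circles), DAC against DMSO in Be(2)-C (blue squares) and DAC+EPZ against EPZ in IMR5-75 (green triangles). The ATF4 list has its median at -0.70 in the first comparison, 0.35 in the second and 0.15 in the third, while the DNA replication list is below 0 in all 3, at -0.25, -0.45 and -0.76.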

How the data were processed

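The libraries were RNA-seq of Be(2)-C and IMR5-75 cells under DMSO, DAC, EPZ-6438 or both, 2 per group and 16 in all. Per the labels' protocols, they were directional, rRNA-depleted and read as 50-base single ends. The authors deposited raw counts per gene. TopHat2 2.0.5, HTSeq 0.5.3p9, DESeq2 and hg19 are named per the submitters' processing notes, while for the annotation and for strand-specific counting the setting is not given in the sources used here. Counts of overlapping, antisense or near-identical genes (histones, MAGEA, PAGE and protocadherin genes) are therefore uncertain.

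The table held 23459 genes, 1191 of them at 0 in every library, and 15967 passed edgeR's filterByExpr. edgeR 4.0.16 (limma 3.58.1, R 4.3.3) fitted all 16 libraries as 8 groups by quasi-likelihood with TMM scaling, with 8 residual degrees of freedom and a common biological coefficient of variation of 9.88%. P-values were adjusted by Benjamini-Hochberg over all tested genes. The differences with minus without EPZ, and between the lines, were tested as contrasts of the same model. A SE is the log2 change over the square root of its F statistic. Ratios with 1 to 3 counts in a group have exact binomial 95% intervals. The steps were tested on simulated data.

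The samples, the comparison and 45 gene lists were chosen with earlier results of these data known. Named genes are the 12 highest and 12 lowest called genes whose mean log2 CPM reached 1 with both DAC+EPZ libraries on the same side, the 3 with the smallest adjusted p in each list with at least 3 called, the 6 highest and 6 lowest in each difference, and DNMT1, DNMT3A, DNMT3B, UHRF1, EZH1, EZH2 and MYCN. Some genes that the rule names are not reported here. All other genes given with values were chosen after their values were seen, among them DDX4, the PIWIL genes, TDRD9, LIN28B, PRAME, PAGE2, CHAC1, ASNS, ATF4, ATF5, ALDH1L1, AXL, ACTA2, CDKN1A, STAT2 and BST2.

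Promoter windows are RefSeq's (GRCh38.p14). Of the genes, 19863 matched by symbol, 2151 by synonym and 1445 not at all. Alternatives were DESeq2 1.42.0 size factors or its Wald test, no filter, a replicate block (also crossed), fits of 1 line or of 4 libraries only, fits without the DMSO and DAC libraries, and leaving out each library.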

Additional observations from a re-analysis of the deposited data

Results flagged for a closer look

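A difference between the responses with and without EPZ in Be(2)-C was called for 41 genes, and a difference between the responses of Be(2)-C and IMR5-75 for 1662 genes, both by edgeR's quasi-likelihood test of the difference itself. The genes named for each difference are given here as values, on the log2 scale.

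For DAC added to EPZ minus DAC without EPZ, the 6 lowest by the naming rule were GDF15 (-5.69), INHBE (-4.99), FAM129A (-4.82), HMOX1 (-4.60), SEL1L3 (-4.46) and ULBP1 (-4.17). Above 0 were DBI, a carrier of acyl-CoA (0.96), and DCN, the matrix proteoglycan decorin (0.96). DBI had 30.0 and 23.2 CPM in DAC+EPZ, 24.9 and 22.9 CPM in EPZ, 20.9 and 22.8 CPM in DAC and 40.1 and 36.1 CPM in DMSO. DCN had 35.3 and 28.1 CPM in DAC+EPZ, 25.1 and 24.5 CPM in EPZ, 42.7 and 37.9 CPM in DAC and 63.4 and 59.0 CPM in DMSO. Neither was called with DAC added to EPZ, and both were called lower without EPZ.

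For the difference Be(2)-C minus IMR5-75, the lowest values were GDF15 (-10.74), RFPL4B (-9.46), TDRD1 (-8.60), the vault RNA VTRNA1-3 (-8.23), ZNF223 (-7.71) and HTR2C, a serotonin receptor (-7.34). Among the highest were KRT19 (9.37), CBLN4 (5.72), IGSF11 (5.68), ZNF630 (5.57) and ASPDH (5.36). Many of these fitted values rest on a group with 0 counts, so they depend on the prior count and are no bound. TDRD1, a piRNA pathway gene, had 147 and 142 CPM in DAC+EPZ and 143 and 189 CPM in EPZ in Be(2)-C, and 32.0 and 28.2 CPM against 0.0788 and 0.0787 CPM in IMR5-75. RFPL4B had 3.56 and 2.52 CPM against 1.82 and 2.78 CPM in Be(2)-C, and 9.32 and 10.1 CPM against 0 counts in IMR5-75. VTRNA1-3 had 33.6 and 28.7 CPM against 49.8 and 54.7 CPM in Be(2)-C, and 1.91 and 1.79 CPM against 0 counts in IMR5-75. KRT19 had 0 counts in both DAC+EPZ libraries of IMR5-75 and 2.05 and 0.708 CPM in its EPZ libraries. CBLN4 had 24.8 and 23.4 CPM against 19.3 and 19.8 CPM in Be(2)-C, and 0 counts against 0.788 and 0.0787 CPM in IMR5-75. Without IMR5-75 EPZ 1 its difference was 3.41 (adjusted p = 0.353), and its call was also lost without either IMR5-75 DAC+EPZ library. ZNF630 had 4.48 (adjusted p = 0.131) without IMR5-75 EPZ 1, and it too lost its call without either IMR5-75 DAC+EPZ library.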

How the results depend on the processing

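Counts of called genes are for DAC added to EPZ in Be(2)-C unless stated. Against 672 in the 16-library model, DESeq2 size factors gave 664, no filter 915, the DESeq2 Wald test 657 and Be(2)-C alone 691, while the 4 libraries alone gave 416 (291 higher, 125 lower). With the 4 libraries alone the counts of lower genes were 1 each for the tRNA synthetase, unfolded protein response, DNA replication, cholesterol and recombination lists, 3 each for the serine and NRF2 lists and 0 for the MYC list. Counts of higher genes were then 0 for p53 targets, 3 for TGF-beta and BMP and 1 for zinc finger genes, while the ATF4 list had 19 lower and the cancer-testis list had 14 higher. No filter gave 31 and Be(2)-C alone 29 lower histone genes. No filter also gave 7 higher genes each for the protocadherin and imprinted lists and 8 lower for the MYC list. The unfolded protein response count was 3 with size factors and with Be(2)-C alone. The median of all tested genes stayed between -0.012 and 0.021. The replicate numbers do not pair the samples (the deviations of same-numbered DAC+EPZ and EPZ libraries correlated at -0.414 over 11329 genes). The replicate block gave 529 genes (376 higher, 153 lower), with lower counts of 3 for tRNA synthetases, 2 for the unfolded protein response, 3 for NRF2, 4 for replication, 3 for cholesterol and 1 for MYC, and 2 higher p53 targets, and the crossed pairing, chosen after seeing the data, 594. For DAC without EPZ the block gave 703 (270 lower), and for the line difference 463 above 0. For the difference with minus without EPZ, no filter gave 109 genes (28 above 0, 81 below), and 0 were above 0 with the replicate block or with Be(2)-C alone. DBI and DCN thus lost their calls in both.

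Leaving out 1 library gave 278 to 547 genes (214 to 372 higher, 64 to 175 lower), and 297 to 583 for DAC without EPZ (184 to 351 higher, 113 to 232 lower). In IMR5-75 it gave 3737 to 4846 (2332 to 2954 higher, 1405 to 1892 lower). It gave 16 to 51 for the difference with minus without EPZ (0 to 20 above 0, 16 to 50 below) and 874 to 2003 for the line difference (283 to 927 above, 588 to 1076 below). Signs turned only in genes that were not called. With 1 library left out, DNMT1 ran between -0.28 (without EPZ 2) and 0.13 (without EPZ 1), and MYCN between -0.27 (without EPZ 2) and 0.28 (without EPZ 1), with 0.01 without DAC+EPZ 1. DNMT3B ran between -0.10 (without DAC+EPZ 1) and 0.11 (without DAC+EPZ 2), with -0.04 without EPZ 1, and was at -0.0010 with Be(2)-C alone. Of the gene values with 1 library left out, 102 lost the call and 5 changed sign. The other 385 kept their direction, and they include genes that were called in neither fit.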

Other observations

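Small nucleolar RNAs, which guide the chemical modification of ribosomal RNA, were called lower in 20 of 226 tested cases (8.85%, against 1.37% of all tested genes) and higher in 2, with a median of -0.38, when DAC was added to EPZ. Without EPZ the counts were 2 lower and 5 higher (median -0.12), where 2.97% of all tested genes were lower. In IMR5-75 they were 23 lower and 1 higher (median -0.05), where 16.9% of all tested genes, a greater share than the 23 of 226, were lower. The count of lower ones was 7 without DAC+EPZ 1, 1 without DAC+EPZ 2, 21 without EPZ 1 and 1 without EPZ 2. SNORA23 had 87.7 and 83.7 CPM in DAC+EPZ and 136 and 182 CPM in EPZ (-0.89 ± 0.18, adjusted p = 0.00506), and SNORA8 had 28.9 and 25.4 CPM against 40.5 and 60.8 CPM (-0.90 ± 0.20, adjusted p = 0.0113). These genes were looked at after their values were seen.

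Further genes chosen after their values were seen lie outside the groups described. IDH1, the cytosolic isocitrate dehydrogenase, had 80.6 and 64.9 CPM in DAC+EPZ and 162 and 179.7 CPM in EPZ (-1.23 ± 0.15, adjusted p = 2.4e-05). LRP1B, an endocytic receptor, had 1.42 and 1.15 CPM against 5.90 and 6.29 CPM (-2.22 ± 0.31). RPL10L, a ribosomal protein copy of the testis, had 90 counts against 2 (ratio 47.3, interval 12.7 to 396). TERT, the catalytic subunit of telomerase, had 0.623 and 1.36 CPM against 3.09 and 3.33 CPM (-1.72 ± 0.49, adjusted p = 0.0484), and its adjusted p was 0.0884 to 0.359 without any 1 of the 4 libraries.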
